A study of Arabidopsis thaliana with 12 samples.

Results

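The wall-associated kinases WAK1 (AT1G21250), WAK2 (AT1G21270), WAK3 (AT1G21240), WAK4 (AT1G21210) and WAK5 (AT1G21230) of Arabidopsis thaliana were followed in leaf RNA of 4 genotypes. They were chosen by gene identifier, as a known family, with earlier results of these data known. All 5 were found among the 33197 genes with an identifier in the deposited table. Of these, 16817 genes passed a filter on low values and were tested, and 3 of the 5 WAK genes were among them: WAK1, WAK2 and WAK3. Each of the 3 would have passed on its wild type values alone. WAK4 and WAK5 were too low to test.

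WAKs are receptor kinases that span the plasma membrane. Their extracellular part carries EGF-like repeats and binds pectin, the acidic polysaccharide of the cell wall, and its breakdown products, the oligogalacturonides. Their kinase domain lies in the cytoplasm. Binding to intact pectin is linked to cell expansion and binding to oligogalacturonides to defence signalling, and WAK1 transcripts are known to rise with pathogens and salicylic acid in leaves. The genes lie side by side on chromosome 1.

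The study compared leaves of the Columbia (Col) wild type with 3 lines labelled anac017, anac082 and anac090. Per the labels, these lines are T-DNA insertion mutants of NAC transcription factor genes in the Col background. Every plant was grown under long days, every leaf was 18 days old, and each genotype had 3 libraries, numbered 1 to 3 (12 in all). The labels do not say which insertion allele was used, or whether the 3 libraries of a genotype came from separate plants, so the p-values measure the spread between these libraries, which may be technical.

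Values are deposited as log2(abundance + 1) and were already quantile normalized between libraries, so no read depth is known and a change in total RNA is not visible. The scale appears to be per gene length, from the distribution of its low values, and levels of different genes are set side by side on that basis. The targeted genes did not all follow their labels. NAC017 read 5.79 to 5.99 in wild type and 6.68 to 6.84 in the libraries labelled anac017. The ANAC082 gene, named VNI1 in the table, read 4.98 to 5.07 in wild type and 9.75 to 9.94 in the libraries labelled anac082. NAC090 read 1.35 to 1.75 in wild type and 0.72 to 1.22 in the libraries labelled anac090. The transcripts of the first pair were thus higher, not lower, in the lines named for them (adjusted p = 0.0152 and 2.7e-09), and NAC090 was lower by 0.60 ± 0.30 (SE), without passing the test (adjusted p = 0.192). Genotype names below are the labels' names. Leaf photosynthesis markers were high in all libraries (summed back-transformed values 4.43e+03 to 5.32e+03), and root and flower markers were near 0 (at most 1.46 and 1.26). The photosynthesis sum rests mostly on RBCS-1A and LHCB1.2. The remaining marker, BCA1, averaged 9.38 in wild type and 8.60, 8.98 and 8.23 in anac017, anac082 and anac090. Among the mutants, anac082 replicate 1 and anac090 replicate 2 lay nearest to wild type in their pathogenesis-related transcripts, and anac090 replicate 3 lay above its group. The mean of PR1, PR2 and PR5 was 6.72, 7.50 and 7.31 in wild type. It was 7.73, 9.55 and 9.87 in anac082 libraries 1, 2 and 3, and 9.23, 7.90 and 10.41 in those of anac090. WAK results are given with and without anac082 replicate 1 and anac090 replicate 3. These 2 libraries were singled out on PR transcripts, of which PR1 follows WAK1 and WAK3 closely across libraries, and PR2 and PR5 less closely. Leaving the 2 libraries out thus moves the WAK values of their own groups in a direction fixed by that choice. It also narrows the shared spread of WAK1 and WAK3, and so lends a change no support.

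To show what the genes share and where they differ in sequence, the 250 bases before each annotated gene start of the 3 expressed genes are printed here from the TAIR10.1 genome, plus strand, chr1:7438921-7439170 for WAK1, chr1:7444499-7444748 for WAK2 and chr1:7433985-7434234 for WAK3. The windows end just before the gene starts of TAIR10.1, which lie upstream of the starts that the deposited table gives from TAIR10, and positions are counted back from the TAIR10.1 starts. Capitals mark the W box core TTGAC, the letters bound by WRKY factors, and the as-1 core TGACG, the letters bound by TGA factors, on either strand (GTCAA and CGTCA on the reverse).
WAK1: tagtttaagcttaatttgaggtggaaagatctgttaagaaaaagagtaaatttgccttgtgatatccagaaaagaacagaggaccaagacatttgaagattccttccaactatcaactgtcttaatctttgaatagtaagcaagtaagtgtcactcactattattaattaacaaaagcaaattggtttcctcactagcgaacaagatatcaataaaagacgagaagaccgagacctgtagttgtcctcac
WAK2: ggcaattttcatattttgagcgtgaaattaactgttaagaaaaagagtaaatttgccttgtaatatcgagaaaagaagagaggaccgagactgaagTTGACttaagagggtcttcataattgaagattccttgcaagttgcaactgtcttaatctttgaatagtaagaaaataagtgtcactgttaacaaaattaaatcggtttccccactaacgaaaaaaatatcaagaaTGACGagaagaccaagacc
WAK3: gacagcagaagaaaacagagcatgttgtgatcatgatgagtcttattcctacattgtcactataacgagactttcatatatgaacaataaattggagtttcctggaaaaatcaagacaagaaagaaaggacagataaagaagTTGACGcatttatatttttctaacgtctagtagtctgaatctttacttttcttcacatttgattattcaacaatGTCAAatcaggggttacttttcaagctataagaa
The WAK1 window held neither core. The WAK2 window held 1 W box core, at -154 to -150 from the gene start, and 1 as-1 core, at -19 to -15. The WAK3 window held 2 W box cores, at -108 to -104 and, on the reverse strand, at -34 to -30, and its as-1 core at -107 to -103 overlapped the first of them. Of 27443 promoter windows of this length, 44.9% held a W box core, 14.1% held 2 or more and 18.6% held an as-1 core. A match describes letters only, and no match says only that these letters are absent from this window.

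The 5 coding sequences are near in length, 2199 to 2226 bases in TAIR10.1, or 732 to 741 codons. The genes have 3 exons each, except WAK4 with 4. Pairwise identity of the coding sequences ran from 79.1% (WAK2 and WAK4) to 85.8% (WAK1 and WAK3). Reads can be split between such copies. Of the 50-base windows along each spliced transcript, 7.13% in WAK1, 3.68% in WAK2 and 3.29% in WAK3 occurred unchanged in another WAK transcript, and of the 100-base windows 2.02%, 0.746% and 1.21%. The sources used here do not give how shared reads were assigned.

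In every library the expressed WAKs were read in the order WAK1, WAK2, WAK3, except in wild type replicate 1, where WAK2 was above WAK1, and WAK4 and WAK5 lay under them. WAK1 and WAK2 were close in wild type (6.25 ± 0.35 and 6.17 ± 0.18, mean ± SD, n = 3). They did not differ there beyond their spread. WAK3 lay well under both, at 2.37 ± 0.59. WAK4 was at or near 0 throughout, between 0 and 0.17, with 2 libraries listed at 0. WAK5 was listed at 0 in all 12 libraries.

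**Figure D1:**
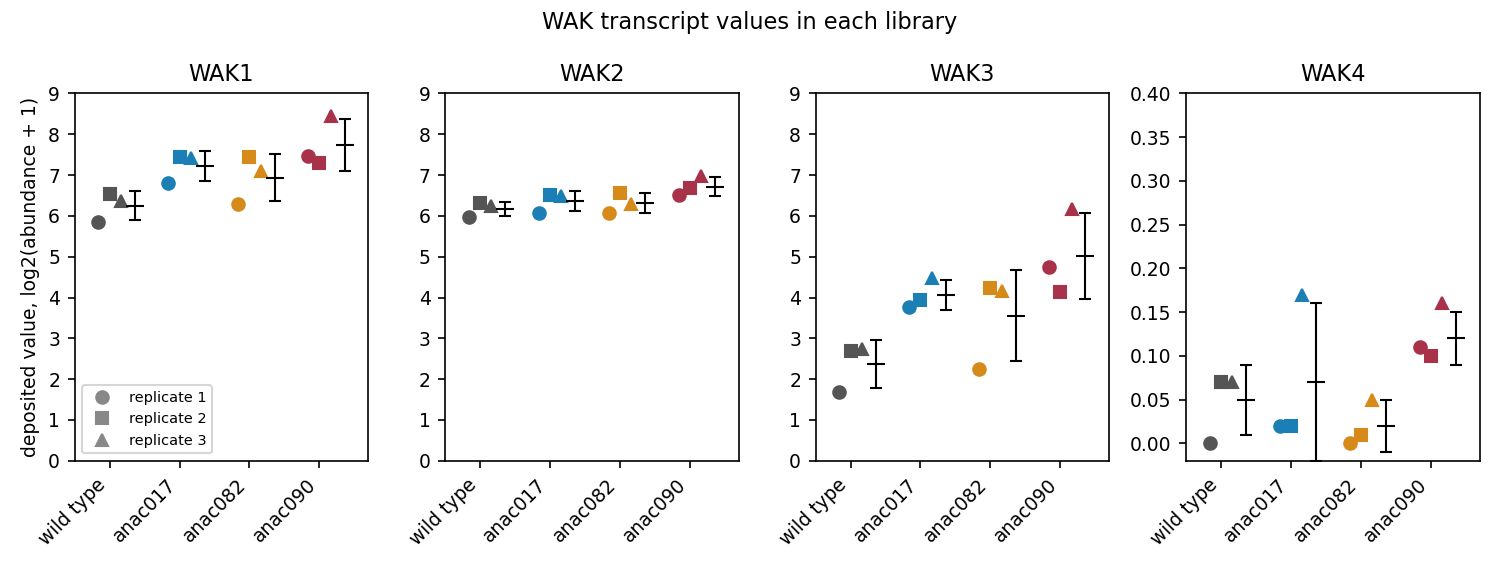
Deposited values of WAK1 to WAK4, as log2(abundance + 1), in each library by genotype; the marker shape gives the replicate number, and the dash with its bar gives the mean and SD of 3 libraries. WAK4 has its own axis, which ends at 0.40. WAK3 spans the widest range, from 1.69 in wild type replicate 1 to 6.18 in anac090 replicate 3, and WAK2 the narrowest of the 3 expressed genes, from 5.97 to 6.98.

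WAK3 and WAK1 were higher in anac090 leaves than in wild type, by 6.26-fold and 2.80-fold, and both passed the test. WAK2 was 1.47-fold higher and did not pass it, but did with the replicate number as a block. WAK3 read 1.69, 2.69 and 2.73 in wild type libraries 1, 2 and 3, and 4.75, 4.13 and 6.18 in the anac090 libraries. The lowest anac090 value lay 1.40 above the top wild type value. The log2 change of WAK3 was 2.65 ± 0.60 (SE; 95% interval 1.33 to 3.96; adjusted p = 0.0369).

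WAK1, the member best known as a gene induced by salicylic acid, read 5.86, 6.53 and 6.37 in wild type and 7.48, 7.29 and 8.46 in anac090. These groups did not overlap either, with a gap of 0.76. Its change was 1.49 ± 0.35 (95% interval 0.71 to 2.27; adjusted p = 0.0388). WAK2, the member tied to cell expansion and to vacuolar invertase expression, read 5.97, 6.31 and 6.24 in wild type and 6.52, 6.68 and 6.98 in anac090. The anac090 libraries were again all higher, but by a smaller gap of 0.21. WAK2 changed by 0.55 ± 0.17 (95% interval 0.18 to 0.93; adjusted p = 0.0657), and with the replicate block its adjusted p was 0.0188. WAK4 read 0, 0.07 and 0.07 in wild type and 0.11, 0.10 and 0.16 in anac090, values at which no fold is given.

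The background of this comparison was 3.66% of tested genes called higher and 3.65% called lower, and 8.19% called higher with the replicate block. These shares rest on single libraries, since the 616 genes higher and 613 lower ran from 9 to 2320 and from 2 to 2694 when 1 library was left out. Of the tested WAKs, 2 of 3 were called higher, or 3 of 3 with the block, and none lower. Groups without overlap, anac090 higher, occurred in 13.4% of tested genes and in 3 of the 3 WAKs. Where groups do not overlap, every same-numbered pair must be higher, so the direction of the pairs adds nothing to this. The paired differences of WAK3 were 3.06, 1.43 and 3.45. Among the changes of all tested genes, that of WAK3 stood at percentile 99.9, that of WAK1 at 98.3 and that of WAK2 at 91.0.

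The calls in anac090 rested on a shared estimate of spread and on single libraries: with only the 2 groups fitted both had adjusted p = 0.178, and leaving out any 1 library other than anac082 replicate 1 or anac090 replicate 2 ended both calls (adjusted p up to 0.109 for WAK1 and 0.101 for WAK3). Without anac090 replicate 3, WAK1 was higher by 1.13 (adjusted p = 0.0914) and WAK3 by 2.07 (adjusted p = 0.0808), and with anac082 replicate 1 left out as well the same changes had adjusted p = 0.0324 and 0.0179. That choice of libraries also narrows the shared spread, so the lower adjusted p are no independent support.

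In anac017 leaves WAK3 was 3.21-fold and WAK1 1.95-fold higher than in wild type, with no overlap between the groups, but neither passed the test over all genes. WAK2 was 1.14-fold higher and overlapped wild type. WAK3 read 3.76, 3.94 and 4.47 in the anac017 libraries, at least 1.03 above every wild type library. Its change was 1.68 ± 0.60 (95% interval 0.37 to 3.0; adjusted p = 0.123, and 0.051 with the replicate block). WAK1 read 6.80, 7.45 and 7.41, with a gap of 0.27 to wild type. The change of WAK1 was 0.97 ± 0.35 (95% interval 0.18 to 1.75; adjusted p = 0.133, and 0.0523 with the block). For WAK2 the values were 6.07, 6.52 and 6.49, and the change 0.18 ± 0.17 (95% interval -0.19 to 0.56; adjusted p = 0.516).

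In this comparison 1.47% of tested genes were called higher and 0.612% lower, and 0 of the 3 WAKs were called. At an unadjusted p under 0.05 there were 4244 genes, WAK1 and WAK3 among them. Groups without overlap, anac017 higher, made up 19.0% of tested genes and 2 of the 3 WAKs. The paired differences of WAK1 were nearly equal, at 0.94, 0.92 and 1.04. Without anac082 replicate 1 and anac090 replicate 3, which belong to neither group but enter the shared spread, the same changes of WAK1 and WAK3 had adjusted p = 0.0138 and 0.00663. These libraries were chosen on PR transcripts, of which PR1 follows WAK1 and WAK3, so the narrower spread follows from that choice. The lower adjusted p thus lend the changes no support. In that fit 1762 of all tested genes were called higher and 1888 lower.

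The anac082 libraries overlapped wild type for every WAK, and no WAK passed the test. WAK3 read 2.26, 4.24 and 4.16, so that replicate 1 lay among the wild type libraries and the other 2 above them. Its mean was 2.27-fold that of wild type (log2 change 1.18 ± 0.60, 95% interval -0.13 to 2.5; adjusted p = 0.696). WAK1 showed the same split, with 6.30 in replicate 1 and 7.44 and 7.09 in the others, and a change of 0.69 ± 0.35 (95% interval -0.09 to 1.47; adjusted p = 0.696). WAK2 read 6.08, 6.55 and 6.30, a change of 0.14 ± 0.17 (95% interval -0.24 to 0.51; adjusted p = 0.821). Called genes were 0.0297% higher and 0.0178% lower in this comparison, and 8.37% of tested genes had groups without overlap, anac082 higher, against 0 of the 3 WAKs. At an unadjusted p under 0.05 there were 1206 genes, and none of the WAKs. Without anac082 replicate 1, the anac082 library nearest to wild type, the changes were by that choice larger, 1.01 for WAK1 and 1.83 for WAK3 (adjusted p = 0.451 and 0.435). With anac090 replicate 3 left out too, the adjusted p were 0.0484 and 0.0284, which is no independent support for a change.

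The 3 comparisons share the wild type libraries, so their results are not independent of each other. Direct comparisons between the mutants called no WAK. The WAK changes were 0.28, 0.05 and 0.50 for WAK1, WAK2 and WAK3 in anac017 against anac082, where 0.892% of tested genes were called in either direction (adjusted p = 0.826, 0.95 and 0.807). In anac017 against anac090 they were -0.52, -0.37 and -0.96 (adjusted p = 0.602, 0.405 and 0.558), where 1.48% of genes were called. In anac082 against anac090 they were -0.80, -0.41 and -1.46 (adjusted p = 0.434, 0.416 and 0.416), where 0.0119% were called. At an unadjusted p under 0.05 the counts of WAKs were 0, 0 and 3 in these comparisons, among 1893, 2141 and 1913 genes. The intervals are wide. For WAK3, that of anac017 against anac090 ran from -2.28 to 0.35 and that of anac082 against anac090 from -2.78 to -0.15, so these data do not show that the mutants are alike.

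**Figure D2:**
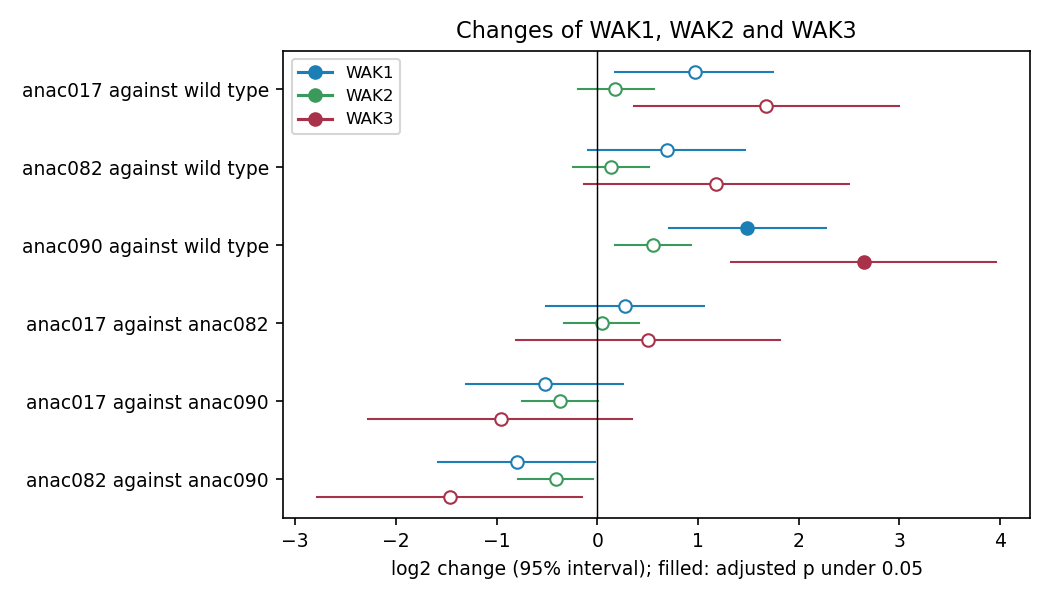
Log2 changes of WAK1, WAK2 and WAK3 in the 6 comparisons (points) with 95% intervals (bars); filled points have an adjusted p under 0.05. The filled points are WAK1 at 1.49 and WAK3 at 2.65, both in anac090 against wild type. The WAK2 points stay within 0.55 of 0.

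The distance between WAK1 and WAK2 was followed within each library. WAK1 minus WAK2 was -0.11, 0.22 and 0.13 in wild type, a mean of 0.08 ± 0.17 (SD, n = 3). It was 0.74, 0.94 and 0.92 in anac017, 0.23, 0.89 and 0.79 in anac082, and 0.96, 0.61 and 1.48 in anac090. Every mutant library lay above every wild type library, although for anac082 replicate 1 the gap was 0.0 after rounding. The mean differences from wild type were 0.78, 0.55 and 0.94, each with an exact two-sided permutation p of 0.1, the smallest that 3 against 3 libraries can give, so no difference could pass a threshold of 0.05. Such a distance is free of a scale factor of a library, but not of quantile normalization, which acts by level. It shows unequal change only, not that WAK2 stayed the same.

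Across the 12 libraries WAK1 and WAK3 followed each other closely (Pearson r = 0.977, a description over libraries that share genotypes and normalization). After each genotype's mean was taken away, r was still 0.94. WAK3 moved by more than WAK1: the slope of WAK3 on WAK1 was 1.71, and that of WAK2 on WAK1 was 0.38. WAK1 and WAK2 had r = 0.923 (0.92 for the deviations), and WAK2 and WAK3 0.865 (0.77). Of 16815 other genes, 14 had a higher r with WAK1 than WAK3 had, and 343 a higher r than WAK2.

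**Figure D3:**
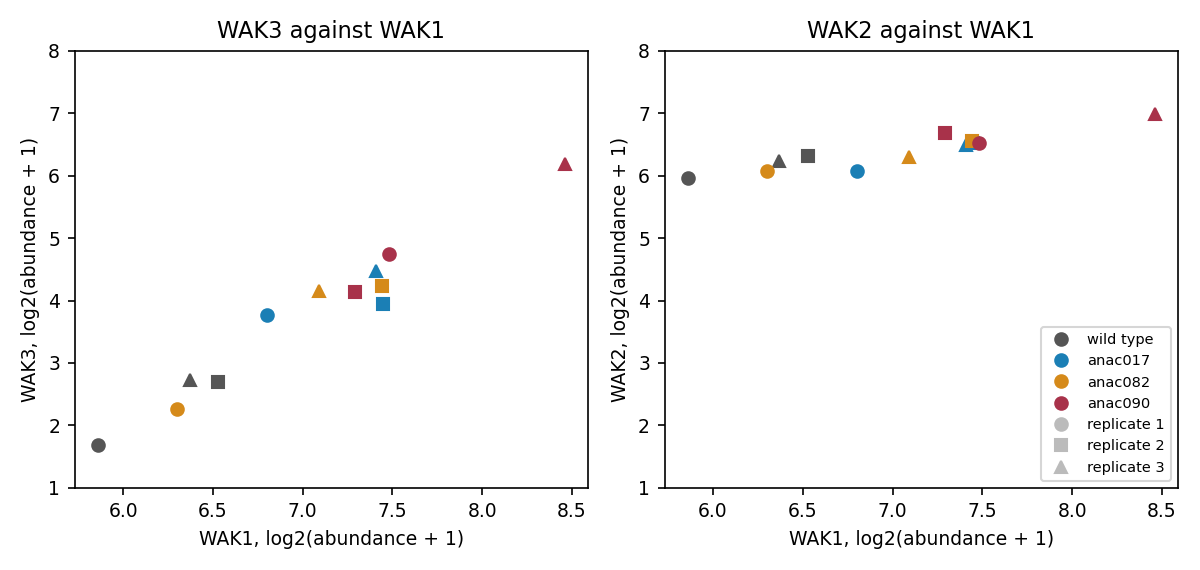
WAK3 (left) and WAK2 (right) against WAK1 in the 12 libraries, all as log2(abundance + 1); colour gives the genotype and shape the replicate number. The libraries run along 1 line in each panel, steep for WAK3 (slope 1.71) and shallow for WAK2 (slope 0.38). Replicate 1 of anac082 lies among the wild type libraries and replicate 3 of anac090 at the upper end.

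The genes with the most similar patterns were named by their r over the 12 libraries. For WAK1 these were NUDT6 (0.987), a nudix hydrolase, AT3G28510 (0.986), a P-loop hydrolase family gene, and the ankyrin repeat gene AT4G03450 (0.985). For WAK2 they were AT1G59710 (0.961), of unknown function, AT3G15810 (0.955), a LURP-one-related gene, and the ankyrin repeat gene ACD6 (0.954), known for a gain-of-function allele with high salicylic acid and cell death. For WAK3 they were AT5G38900 (0.991), a thioredoxin family gene, AT1G51890 (0.989), a leucine-rich repeat receptor kinase gene, and AT4G25070 (0.988), with no known function given. The next nearest to WAK3 was PR1, the marker of the salicylic acid response (r = 0.986), with 3 genes above it. PR1 had r = 0.959 with WAK1 and 0.813 with WAK2. The other PR markers, BG2 (PR2) and PR5, were less alike. Their r was 0.715 each with WAK3, 0.69 and 0.665 with WAK1, and 0.414 and 0.385 with WAK2.

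The WAK genes span 23.4 kb on chromosome 1, from 7424106 to 7447549 in the TAIR10 coordinates of the table. WAK4 lies at 7424106 to 7427041, WAK5 at 7429980 to 7432346, WAK3 at 7434303 to 7436830, WAK1 at 7439266 to 7442113 and WAK2 at 7444931 to 7447549. The cluster is not expressed as a block: WAK4 and WAK5 were at or near 0 beside WAK3, WAK1 and WAK2. Within 10 kb of the cluster lie 13 other annotated genes, of which 6 were tested. The transposable element gene AT1G21260, which starts 105 bases after the end of WAK1, did not share its direction in anac090, with a change of -0.48 ± 0.19 (adjusted p = 0.117) and means of 2.95 in wild type and 2.47 in anac090. AT1G21280 overlaps the end of WAK2 by 60 bases and changed by -0.04 (adjusted p = 0.841). Its reads may be shared with WAK2, since it is not stated whether strand was used in counting.

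Past the cluster, EXT3 (AT1G21310), which encodes the extensin-3 structural protein of the cell wall, read 4.53, 4.56 and 4.94 in wild type and 7.20, 5.63 and 8.48 in anac090. The groups did not overlap. EXT3 was 5.38-fold higher in anac090 (2.43 ± 0.65, adjusted p = 0.0489). In anac017 it read 6.69, 6.84 and 7.34, a change of 2.28 ± 0.65 (adjusted p = 0.0815, and 0.0468 with the replicate block). In anac082 it read 5.46, 7.38 and 7.33 (2.05 ± 0.65, adjusted p = 0.664). Without anac090 replicate 3 its change in anac090 was 1.74 (adjusted p = 0.129). SEC5B, LSM3A and AT1G21200, on the other side of the cluster, were not called in any comparison with wild type.

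**Figure D4:**
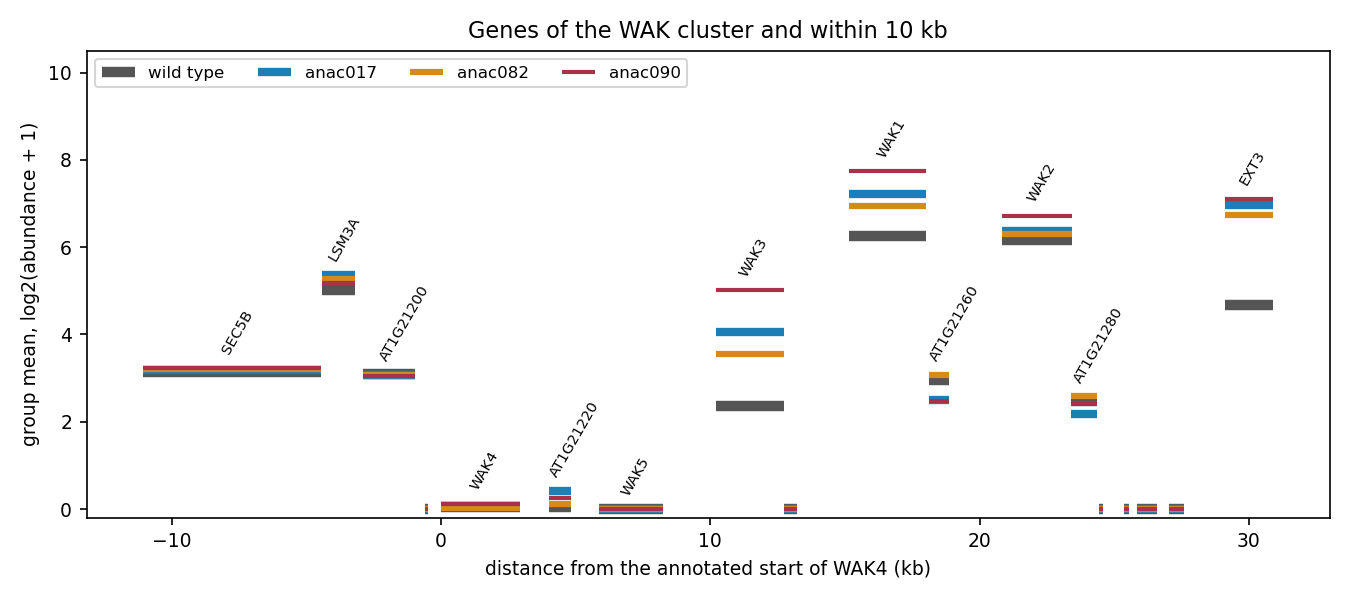
Mean of 3 libraries per genotype, as log2(abundance + 1), for each annotated gene of the WAK cluster and within 10 kb, drawn at its distance from the start of WAK4 in kb; bar length is gene length, bar thickness only keeps overlapping genotypes visible, and bars at 0 without a name are genes listed at 0 in all libraries. The means spread from 2.37 to 5.02 at WAK3 and from 6.25 to 7.74 at WAK1, the mutant means at EXT3 (6.73 to 7.11) lie above that of wild type (4.68), and the means at SEC5B and AT1G21200 lie almost on 1 line. Spread between libraries is not drawn.

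Genes of the same family and pathway were grouped by role, first the WAK-like receptors (WAKL). Of 20 WAKL genes 9 were tested, and in anac090 2 rose and 0 fell, beside 3.66% of all tested genes called higher, with a median change of 0.50 against -0.03 over all tested genes. WAKL10 read 1.39, 1.11 and 1.37 in wild type and 2.79, 2.37 and 3.27 in anac090. Its change was 1.52 ± 0.22 (adjusted p = 0.0213), and the groups did not overlap. WAKL2 read 1.30, 1.20 and 1.50 in wild type and 2.20, 2.84 and 2.01 in anac090, a change of 1.02 ± 0.23 (adjusted p = 0.0365). With the replicate block 4 WAKL genes rose in anac090, beside 8.19% of all tested genes.

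In anac017 the called gene was another, WAKL22, also known as RFO1 for its part in resistance to Fusarium oxysporum. WAKL22 read 4.38, 4.32 and 4.35 in wild type and 4.94, 4.85 and 4.80 in anac017 (0.52 ± 0.10, adjusted p = 0.0302), and 4.57, 4.20 and 4.42 in anac090 (0.05 ± 0.10, adjusted p = 0.757). The direct difference between anac017 and anac090 was 0.47 (adjusted p = 0.0487), and between anac017 and anac082 0.58 (adjusted p = 0.0233). WAKL22 differed between mutants where WAK1 to WAK3 did not pass that test. The WAKL median was 0.29 in anac017 and 0.14 in anac082, where 0 were called, and 2 WAKL genes rose in anac017 with the block. Over all tested genes, 1.47% were called higher in anac017, and 691 of 16817 with the block.

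Of 10 genes for proteins that bind WAKs or act after them, 7 were tested. In anac090 0 passed, near the background of 3.66% higher, and 2 rose with the replicate block, beside 8.19% of all genes. None passed in anac017 or anac082. GRP3, the glycine-rich wall protein that binds the outer part of WAK1, was among the higher ones in anac090 (0.47 ± 0.15, adjusted p = 0.0671, and 0.0393 with the block). The other was MPK3, a mitogen-activated protein kinase of defence signalling (0.32 ± 0.11, adjusted p = 0.0883, and 0.0453 with the block). KAPP, the phosphatase that binds the WAK1 kinase domain, changed by -0.11 ± 0.08 (adjusted p = 0.403). MPK6 changed by 0.13 ± 0.10 (adjusted p = 0.396). MPK4 read 5.17, 5.08 and 5.33 in wild type and 5.52, 5.16 and 6.09 in anac090, so the groups overlapped. The vacuolar invertase genes BFRUCT3 and BFRUCT4 averaged 3.59 and 6.32 in wild type and 3.43 and 5.98 in anac090.

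Genes of enzymes that modify pectin or remove its fragments came next. Of 7 tested pectin methylesterase and inhibitor genes, 0 were called in any comparison with wild type, with a median change in anac090 of -0.40, and 0 of 7 is near the background of 3.66% higher and 3.65% lower. PME17 read 1.04, 1.11 and 1.76 in wild type and 3.48, 5.14 and 4.52 in anac017 (3.08 ± 0.93, adjusted p = 0.0909), and was higher by 2.64 in anac090 (adjusted p = 0.0881, and 0.0492 with the block). PME44 went the other way in anac090 (-1.13 ± 0.31, adjusted p = 0.0514, and 0.0377 with the block). Of 4 tested genes for oligogalacturonide oxidases and for PGIPs, the inhibitors of fungal polygalacturonases, 1 rose in anac090, beside 3.66% of all tested genes. This was AT4G20830, annotated as a reticuline oxidase-like protein (0.90 ± 0.22, adjusted p = 0.0418). PGIP1 and PGIP2 changed by 0.35 and -0.28 there (adjusted p = 0.149 and 0.475). None of these 4 passed in anac017 or anac082.

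Other receptor kinases that sense the wall did not pass the test in any comparison with wild type (0 of 4). THE1, FER and HERK1, relatives of each other that monitor wall integrity, changed by -0.18, 0.09 and -0.39 in anac090. The fourth, the leucine-rich repeat kinase gene AT4G08850, was higher by 1.06 ± 0.29 (adjusted p = 0.0511, and 0.0186 with the block).

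Of 4 genes known to respond to oligogalacturonides, 2 rose in anac090, and 4 with the replicate block, beside 3.66% and 8.19% of all tested genes. Their median change was 1.63 against -0.03 over all tested genes. SIRK, also called FRK1, a receptor kinase gene of early defence and senescence, read 1.15, 1.22 and 1.76 in wild type and 3.87, 2.87 and 5.67 in anac090. It rose by 2.76 ± 0.60 (adjusted p = 0.0357). AT1G26380, a berberine-family oxidase gene, rose by 1.92 ± 0.48 (adjusted p = 0.043). CYP81F2 of indole glucosinolate metabolism and the factor gene WRKY40 had changes of 1.17 ± 0.33 and 1.35 ± 0.38 (adjusted p = 0.0538 and 0.0559). In anac017 and anac082 the median changes were 1.28 and 0.95, with 0 called, and 1 rose in anac017 with the block, beside 691 of 16817 tested genes.

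Salicylic acid markers were read as the known inducer pathway of WAK1. PR1 read 5.57, 7.13 and 6.98 in wild type and 10.22, 8.93 and 11.35 in anac090 (3.60 ± 0.79, adjusted p = 0.0357). It was the 1 called gene of 4, beside 3.66% of all tested genes called higher. BG2 (PR2), PR5 and NPR1, the salicylic acid receptor gene, changed by 1.19, 1.20 and 0.42 in anac090 (adjusted p = 0.166, 0.216 and 0.0659). In anac017 PR1 changed by 2.67 ± 0.79 (adjusted p = 0.0873, and 0.0352 with the block). In anac082 BG2 and PR5 had changes of 1.88 ± 0.56 and 1.85 ± 0.64 (adjusted p = 0.664 each) and groups without overlap. PR1 read 6.66, 9.17 and 9.52 there and overlapped wild type through replicate 1, as WAK1 and WAK3 did (1.89 ± 0.79, adjusted p = 0.674). In anac090 replicate 2 PR1, at 8.93, and WAK3, at 4.13, were both above their wild type tops of 7.13 and 2.73. BG2 and PR5 were not, at 7.68 and 7.08 in that library against 7.51 to 7.93 and 7.08 to 7.45 in wild type.

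**Figure D5:**
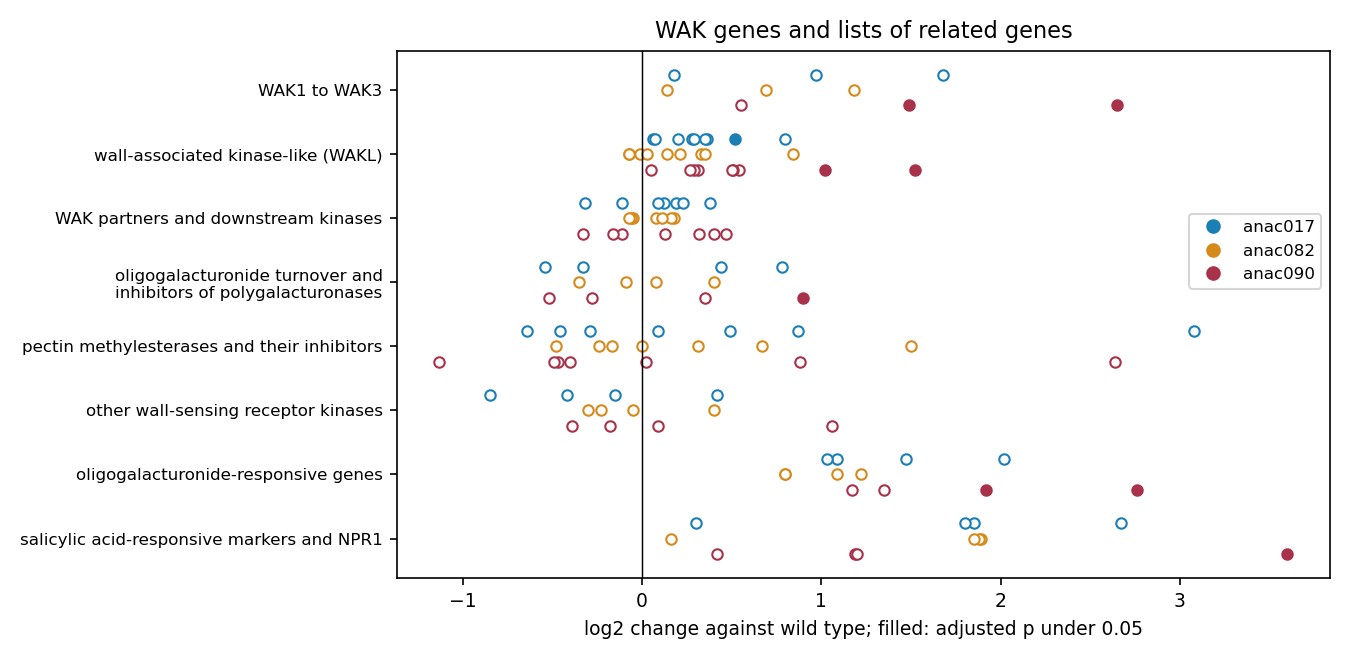
Log2 changes against wild type of the tested WAK genes and of the tested members of each related list, 1 point per gene and genotype; filled points have an adjusted p under 0.05. Filled points in anac090 are found among the WAK genes (WAK1, WAK3), WAKL genes (WAKL10, WAKL2), the oxidase AT4G20830, oligogalacturonide-responsive genes (SIRK, AT1G26380) and PR1, and the filled point in anac017 is WAKL22.

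Other measures moved beside the WAK results. In bulk leaf RNA, more cells of a type and more RNA per cell cannot be told apart. Of the photosynthesis markers, BCA1 lay below wild type without overlap in every mutant. It changed by -1.14 ± 0.35 in anac090 (adjusted p = 0.0654, and 0.046 with the replicate block). In anac017 and anac082 it changed by -0.78 and -0.39 (adjusted p = 0.198 and 0.764). RBCS-1A and LHCB1.2 changed by -0.03 ± 0.08 and -0.06 ± 0.07 in anac090. Guard cell markers summed to 49.7 to 67.3 in wild type and 40.9 to 44 in anac090. There 1 of 3 was called, GASA9 at -0.78 ± 0.17 (adjusted p = 0.035), beside 3.65% of all tested genes called lower. The other guard cell markers, FAMA and KAT1, were at -0.12 ± 0.14 and 0.24 ± 0.13 (adjusted p = 0.562 and 0.229). In anac017 FAMA was at -0.53 ± 0.14 (adjusted p = 0.0677, and 0.0475 with the replicate block). Epidermis markers summed to 154 to 239 in wild type and 35.5 to 161 in anac090, with 0 of 2 called. ATML1 and LTP1 were at -0.71 ± 0.23 and -1.39 ± 0.49 in anac090 (adjusted p = 0.0723 and 0.0882, and 0.0474 and 0.0493 with the replicate block). ATML1 lay below wild type without overlap in every mutant, at -0.47 in anac017 and -0.48 in anac082 (adjusted p = 0.222 and 0.696). Vasculature markers summed to 345 to 468 in wild type, 376 to 569 in anac090 and 524 to 631 in anac017, with 1 of 3 called in each of these mutants, the sugar transporter gene SWEET12 (adjusted p = 0.0465 and 0.0286, and 0.659 in anac082). Over all tested genes, 3.66% were called higher in anac090 and 1.47% in anac017. SUC2 of the same list was at -0.21 ± 0.14 in anac090 and 0.00 ± 0.14 in anac017 (adjusted p = 0.316 and 0.992), and SWEET11 at 0.53 and 0.80 (adjusted p = 0.137 and 0.0815, and 0.0252 and 0.014 with the block). No defining marker of these lists was at 0 in all libraries, and the part of cell composition in the WAK values was not tested. A clock index was taken as the average of CCA1 and LHY, read high in the morning, less the average of 5 evening genes. It was 1.50, 3.22 and 2.94 in wild type and 0.62, 1.86 and 1.89 in anac090, lower in every same-numbered pair. The same held in anac017 (0.40, 2.13 and 1.76) and anac082 (0.69, 2.35 and 2.25). With this index as a covariate the changes in anac090 were 1.97 for WAK1, 0.81 for WAK2 and 3.34 for WAK3 (adjusted p = 0.0134, 0.012 and 0.0161). In that fit 1261 of 16817 tested genes were called higher in anac090 and 1493 lower.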

How the data were processed

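Poly(A) RNA of leaves was made into stranded Illumina libraries and sequenced on a HiSeq instrument, per the labels' protocols. CASAVA 1.8.2, Cufflinks, TopHat and the TAIR10 build are listed, without roles, per the submitters' processing notes. The authors deposited 1 table of 33726 entries, whose values were read as log2(abundance + 1) from their range (0 to 12.3); sorted libraries differ by at most 0.08, so they were quantile normalized. Counts and depth are not known, so no counting interval is given. A low pile-up of values is tighter after multiplying by gene length (13.7% against 7.1% of 1771 low values in a 10% window), as a per-length scale gives. Entries without a gene identifier (529, 1.57%) were left out. No value column was unused.

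Genes whose back-transformed mean over the libraries reached 1 were tested with limma 3.58.1 in R 4.3.3 (lmFit, contrasts.fit, eBayes with trend, two-sided, all 12 libraries), with Benjamini-Hochberg adjustment over 16817 genes and a threshold of 0.05; "rose", "fell" and "called" mean an adjusted p under it. The pseudocount of 1 understates changes of low genes. The script was tested on simulated data. Promoters and coding sequences are RefSeq's, from TAIR10.1, by locus tag.

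Same-numbered libraries deviated together in each comparison with wild type (correlations 0.26 to 0.49 for anac017, 0.22 to 0.39 for anac082, 0.16 to 0.41 for anac090), so the numbers were taken as pairs there, from the data and not from the labels. The fit with a replicate block is given where it changes the call of a WAK gene, and for some of the other genes. That fit used all 12 libraries at once, so it also paired the mutants with each other. Between anac082 and anac090 the same-numbered correlations were 0.50, -0.31 and 0.42 for replicates 1, 2 and 3. Those of anac082 replicate 1 with anac090 replicate 2 and of anac082 replicate 2 with anac090 replicate 3 were 0.39 and 0.45. The numbering is thus not a sure pairing, and results with the block carry that limit. Members and lists were chosen with earlier results of these data known. Named genes are mainly the members, the targeted genes, genes within 10 kb, list members past the threshold or with small p, and the 3 genes most like each member. Alternatives covered filters, pseudocounts, the block, the libraries fitted, library weights, the trend, the clock covariate, the threshold and each library left out.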

Additional observations from a re-analysis of the deposited data

How the results depend on the processing

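With 3 libraries a genotype, calls moved with the settings more than values did. In anac090 against wild type, WAK1 and WAK3 were called, and 0 WAKs were called with no filter on low values, with only the 2 groups fitted (adjusted p = 0.178 for both) or at a threshold of 0.01. With the replicate block, library weights or the clock covariate 3 were called. Leaving out 1 library gave 0 to 3 called WAKs: 0 without any 1 wild type or anac017 library, anac082 replicate 2 or 3, or anac090 replicate 1 or 3, and 3 without anac090 replicate 2. Over these fits WAK1 changed by 1.13 to 1.72 (adjusted p = 0.0105 to 0.109) and WAK3 by 2.07 to 3.09 (0.00788 to 0.101). In anac017, the count of 0 became 2 with only the 2 groups fitted, with library weights, with the clock covariate, and without anac082 replicate 1 and anac090 replicate 3. It ran from 0 to 2 over single libraries left out, 2 being without anac090 replicate 3. In anac082, it became 1 with library weights and 2 without both named libraries, and stayed 0 for each single library. All changes of WAK1 to WAK3 against wild type kept their direction under all 23 alternatives. In anac017 against anac082 it reversed without anac082 replicate 1, also with anac090 replicate 3 left out, to -0.04 for WAK1, -0.07 for WAK2 and -0.15 for WAK3, and for WAK2 to -0.03 and -0.02 without anac017 replicate 2 or 3 and to -0.0 with library weights. Over single libraries left out, these 3 changes ran up to 0.53, 0.19 and 0.84. No WAK was called between mutants in any of these fits. The causes were not tested, apart from fewer libraries or more genes by construction. Over all genes, called higher and lower were 616 and 613 in anac090, 248 and 103 in anac017, and 5 and 3 in anac082. In anac090 they became 2 and 1 with only the 2 groups and 18 and 4 with no filter. They became 3552 and 4004 with library weights, 1378 and 1691 with the replicate block, and 1261 and 1493 with the clock covariate. In anac017 they became 137 and 36 with no filter, 691 and 513 with the block, and 2191 and 2394 with weights. They were 1731 and 1881 with the 2 groups, 399 and 253 with the clock covariate, and 1410 and 1547 without anac090 replicate 3. Without anac082 replicate 1 and anac090 replicate 3 they were 1762 and 1888. In anac082 they became 423 and 253 with weights, and 417 and 303 without both these libraries. WAKL10, WAKL2, AT4G20830, SIRK, AT1G26380, PR1 and EXT3 in anac090, and WAKL22 in anac017, kept their direction and lost their call under 6 to 15 of 22 or 23 alternatives each. Depth is unknown, so how far it limits WAK4 and WAK5 cannot be given.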

Other observations

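Further down the order of likeness, 5 genes are named here after their values were seen. They were picked for following a WAK gene, so their changes are a description of that choice. PME12, a pectin methylesterase gene that the list of this family did not hold, was eighth for WAK1 (r = 0.981 over 12 libraries). It was at 5.10 in wild type and 6.86 in anac090 on average (1.76 ± 0.32, adjusted p = 0.028), and at 6.30 in anac017 (1.20 ± 0.32, adjusted p = 0.0725). CWINV6, annotated as an insoluble beta-fructofuranosidase, was the fifth for WAK3 (r = 0.986) with a change of 2.37 ± 0.55 in anac090 (adjusted p = 0.0375). For WAK2 the fifth was the receptor kinase gene AT4G08850 (r = 0.951) and the seventh WAKL8 (r = 0.946), both from the lists above. WAKL8 changed by 0.51 ± 0.18 in anac090 (adjusted p = 0.091, and 0.023 with the replicate block). SAG13, a senescence-associated gene, was ninth for WAK3 (r = 0.983), with a change of 2.92 ± 0.82 in anac090 (adjusted p = 0.0542).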
